A study of Mus musculus with 6 samples.

Results

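The genes described here are 50 genes that carry out or control the cell cycle, from the licensing of replication origins through DNA synthesis to mitosis and cytokinesis. They were chosen by gene symbol from what the genes are known to do, with earlier results of these data known, and each was found once among the 28987 genes of the deposited RNA-seq table. A test was possible for 43 of them, those with a mean linear value of at least 1 over the 6 libraries. The libraries were made from EGFP+ fibroblasts sorted from mouse ventricles 4 weeks after transverse aortic constriction (TAC), an operation that narrows the aorta and so overloads the left ventricle. Controls (n = 3 libraries) carried a MerCreMer cDNA in the *Postn* locus and a Cre-dependent eGFP reporter in the Rosa locus. The Hsp47-deleted group (n = 3 libraries) carried the same alleles together with Hsp47 flox/flox. Mice of both groups were 8 to 10 weeks old at surgery and received tamoxifen, which the labels give as 100 mg/kg by injection followed by chow at 40 mg/kg. The paper gives other doses. MerCreMer is active only in cells that express *Postn*, so both the EGFP label and the deletion are limited to fibroblasts that were activated at some time during the treatment. The labels do not say whether each library came from a separate mouse, so p-values measure the spread between these libraries.

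After leaving quiescence, a cell loads the MCM helicase onto replication origins in G1, fires those origins in S phase, and segregates the copied chromosomes under the control of cyclin B and Cdk1 in mitosis. Genes of the G1 to S transition are typically controlled by E2F factors, and genes of G2 and mitosis by complexes that bind the cell cycle homology region (CHR) together with CCAAT boxes. Fibroblasts of the healthy adult heart rarely divide, whereas pressure overload brings a limited wave of fibroblast division in its first days. In bulk RNA from sorted cells, fewer cells in cycle and less of a transcript in each cell cannot be told apart.

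Promoter sequences are shown first, because motifs that were not used to choose the members were frequent in some of their roles. RefSeq windows of 300 bases (250 before the start of the gene and 50 after it, build GRCm38.p6) were found for 39 of the 50 genes. No window was matched for *Mcm4*, *Gins2*, *Ccnd1*, *Ccnd2*, *Ccne2*, *Ccna2*, *Cdc25c*, *Aurkb*, *Kif20a*, *Tpx2* and *Foxm1*. Both strands were searched for an E2F motif (TTTGGCGC, TTTCCCGC, TTTCGCGC or TTTGCCGC), for the CHR motif TTTGAA and for the CCAAT box, and overlapping matches were each counted. The 4 windows below belong to *Mcm3* and *Mcm6* from licensing, *Cdc20* from the spindle checkpoint and *Anln* from cytokinesis. Each window holds an E2F or CHR match, and the Hsp47-deleted values of each gene lay above every control. Such values were found for 14% of tested members, against 18.3% of all genes. *Pcna* and *Rrm2* also had such values, but their windows held no E2F or CHR match and are not printed. *Aurkb*, whose Hsp47-deleted values lay below every control, had no window. A link between motifs and group differences was not tested. The 4 windows are written 5′ to 3′ on the strand of the gene, and capitals mark the motifs. All 4 genes lie on the minus strand, and the windows are chr1:20820263-20820562 (*Mcm3*), chr1:128359656-128359955 (*Mcm6*), chr4:118437294-118437593 (*Cdc20*) and chr9:22389157-22389456 (*Anln*).
Mcm3: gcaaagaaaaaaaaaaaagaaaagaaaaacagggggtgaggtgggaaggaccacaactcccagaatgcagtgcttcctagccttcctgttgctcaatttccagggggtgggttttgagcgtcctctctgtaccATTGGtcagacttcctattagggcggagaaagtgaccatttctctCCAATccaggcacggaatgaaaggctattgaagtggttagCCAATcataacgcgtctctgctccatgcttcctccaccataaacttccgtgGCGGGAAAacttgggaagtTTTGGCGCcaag
Mcm6: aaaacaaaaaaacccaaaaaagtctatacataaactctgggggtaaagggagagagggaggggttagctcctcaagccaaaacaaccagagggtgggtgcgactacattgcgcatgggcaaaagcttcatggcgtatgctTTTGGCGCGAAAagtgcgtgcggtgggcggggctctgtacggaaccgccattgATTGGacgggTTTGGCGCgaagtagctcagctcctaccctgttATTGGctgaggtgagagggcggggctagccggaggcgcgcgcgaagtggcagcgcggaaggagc
Cdc20: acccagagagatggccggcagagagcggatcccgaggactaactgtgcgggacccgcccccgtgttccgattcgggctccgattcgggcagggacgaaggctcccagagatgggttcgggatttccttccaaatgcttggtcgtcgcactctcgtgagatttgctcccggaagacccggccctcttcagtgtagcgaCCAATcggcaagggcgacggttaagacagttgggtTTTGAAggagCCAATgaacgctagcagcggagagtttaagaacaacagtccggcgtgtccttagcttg
Anln: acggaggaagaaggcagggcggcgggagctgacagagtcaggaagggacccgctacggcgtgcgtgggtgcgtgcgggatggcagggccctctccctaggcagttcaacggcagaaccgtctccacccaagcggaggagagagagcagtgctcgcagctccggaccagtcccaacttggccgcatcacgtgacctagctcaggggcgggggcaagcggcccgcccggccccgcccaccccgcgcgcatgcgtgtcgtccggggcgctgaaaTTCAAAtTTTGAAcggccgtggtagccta

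The *Mcm3* window held 2 E2F matches, which began 19 and 38 bases downstream of the start, and 3 CCAAT boxes. The *Mcm6* window held 3 E2F matches and 2 CCAAT boxes, and 2 of the E2F matches overlapped each other on opposite strands. The *Cdc20* window had no E2F match. It held 1 CHR match between 2 CCAAT boxes. In *Anln*, 2 CHR matches on opposite strands stood 21 and 28 bases downstream of the start, with neither an E2F match nor a CCAAT box. Neither *Pcna* nor *Rrm2* had an E2F or CHR match, and each held 1 CCAAT box.

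Over all members with a window, an E2F motif was found in 9 of 39 (23.1%), against 3.33% of the 15822 genes of the table that had a window. Of the 9, 6 were among the 7 licensing genes with a window (85.7%), with *Mcm2* the exception, and the others were *Pola1*, *Cdk2* and *Cdk1*. The CHR motif was found in 15 of 39 (38.5%), against 17.5% of the table. It was present in 8 of 10 genes of chromosomes, spindle and cytokinesis, 4 of 6 genes of G2 and mitotic cyclins and kinases, and 2 of 4 genes of the spindle checkpoint. CCAAT boxes were found in 28 members (71.8%) and in 41.9% of the table. In 8 members none of these letters occurred, *E2f1*, *Mybl2*, *Cdk4* and *Cdk6* among them. A match describes the letters of the window and was not tested as a binding site.

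**Figure D1:**
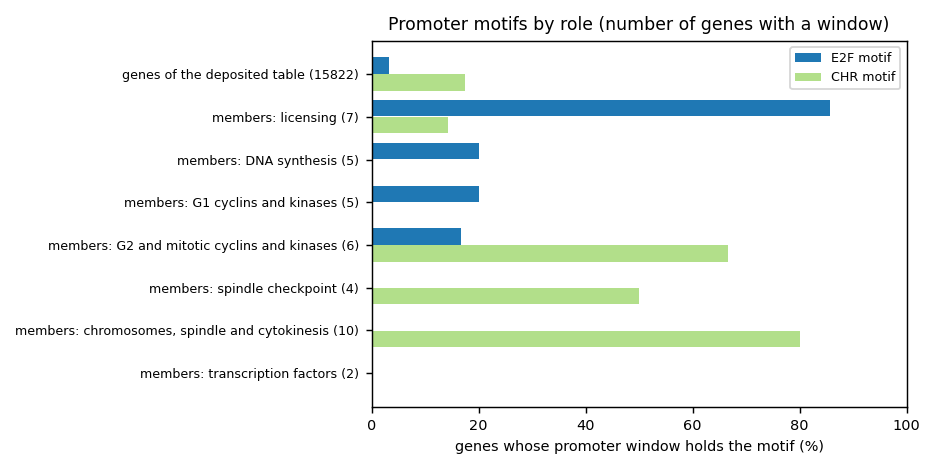
Share of promoter windows (%, x axis) that held an E2F motif or a CHR motif, for the genes of the table and for the members by role, with the number of genes that had a window in parentheses. E2F matches concentrate in the licensing genes (85.7%) and CHR matches in the genes of chromosomes, spindle and cytokinesis (80%), against 3.33% and 17.5% of the table.

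Facts of the libraries that touch every gene come before the results. Control replicates 3 and 4 belong to 1 sequencing run (the first run), and control replicate 2 belongs, with all 3 Hsp47-deleted libraries, to another (the second run). Genes encoded by the mitochondrial genome made up 23.5% to 29.4% of the linear values in controls and 4.7% to 7.23% in Hsp47-deleted libraries. Over all 15109 tested genes the log2 fold changes had a median of 0.35, which became -0.06 when each library was centred on its median, and -0.048 when the linear values were rescaled without the mitochondrial genes. Control replicate 2 had a Pearson r of 0.872 to 0.936 with the Hsp47-deleted libraries across these genes, which are not independent replicates, and of 0.827 and 0.761 with the other controls. The targeted gene *Serpinh1*, which encodes Hsp47, was at 7.60, 6.28 and 6.10 in control replicates 2, 3 and 4, and at 6.87, 6.67 and 6.66 in Hsp47-deleted replicates 1, 2 and 3. It was not lower in the Hsp47-deleted libraries (log2 fold change 0.072, limma, Benjamini-Hochberg adjusted p = 0.947), so groups are named by their labels throughout. Against control replicate 2, the only control of the same run, *Serpinh1* differed by -0.87, which is also its value with the run as a covariate (adjusted p = 0.667, limma). All 10 fibroblast markers were present in every library, with a sum of 8684 to 11916 in controls and 14506 to 16021 in Hsp47-deleted libraries, *Postn* included. *Postn* was at 6.12, 5.87 and 5.86 in control replicates 2, 3 and 4, and at 10.22, 10.50 and 10.36 in Hsp47-deleted replicates 1, 2 and 3. Its log2 fold change was 4.41 (adjusted p = 0.00337, limma), and 4.24 against control replicate 2 alone. Of 12 leukocyte markers, 10 were above 0 in every library and *Ptprc* was at 0 in every library. Their sum was 424 in control replicate 2, 41.5 and 83.7 in control replicates 3 and 4, and 155 to 289 in Hsp47-deleted libraries. This linear sum weighs the highest markers most. In log2(value + 1), *S100a8* was at 7.38 in control replicate 2, against 1.29 and 0.71 in control replicates 3 and 4. *S100a9* (7.4 against 1.26 and 0.92) and *Lyz2* (5.85 against 2.23 and 1.2) had the same order. *Itgam* (2.05 against 3.01 and 3.94) and *Cd68* (4.33 against 4.72 and 6.01) were instead lowest of all libraries in control replicate 2. Endothelial markers (10 of 10 above 0 in every library) summed to 102 to 296 in controls and 184 to 282 in Hsp47-deleted libraries. Mural markers (6 of 6) summed to 163 to 288 and 111 to 169, cardiomyocyte markers (9 of 10) to 49.9 to 292 and 177 to 267, and erythroid markers (3 of the 4 in the table) to 13.3 to 342 and 81.1 to 137. Control replicate 2 had the highest sum of all libraries for endothelial (296), cardiomyocyte (292) and erythroid markers (342). For mural markers it was control replicate 3 (288). Single markers did not all share this order, and *Vwf* (3.11) and *Myh7* (1.52) were lowest in control replicate 2. The part of other cell types in the cell cycle values was not tested.

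The cell cycle program was present at low levels in both groups, and no member passed the test between them. Every member was above 0 in at least 2 libraries, and 48 to 50 of them were above 0 in each. These counts include values of 2e-06 or less for *Ect2* and *Ccnd3*, which amount to 0. All values below are log2(value + 1) unless a sum or a linear value is named. The linear unit is not named, so a level compared between genes holds only if that unit is per transcript length. *Pcna* had the highest value of the members in every library and alone made up 28.2% to 39.7% of their summed linear value. At the other end, *Ect2* and *Ccnd3* were at or near 0 in 3 and 4 libraries, respectively.

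**Figure D2:**
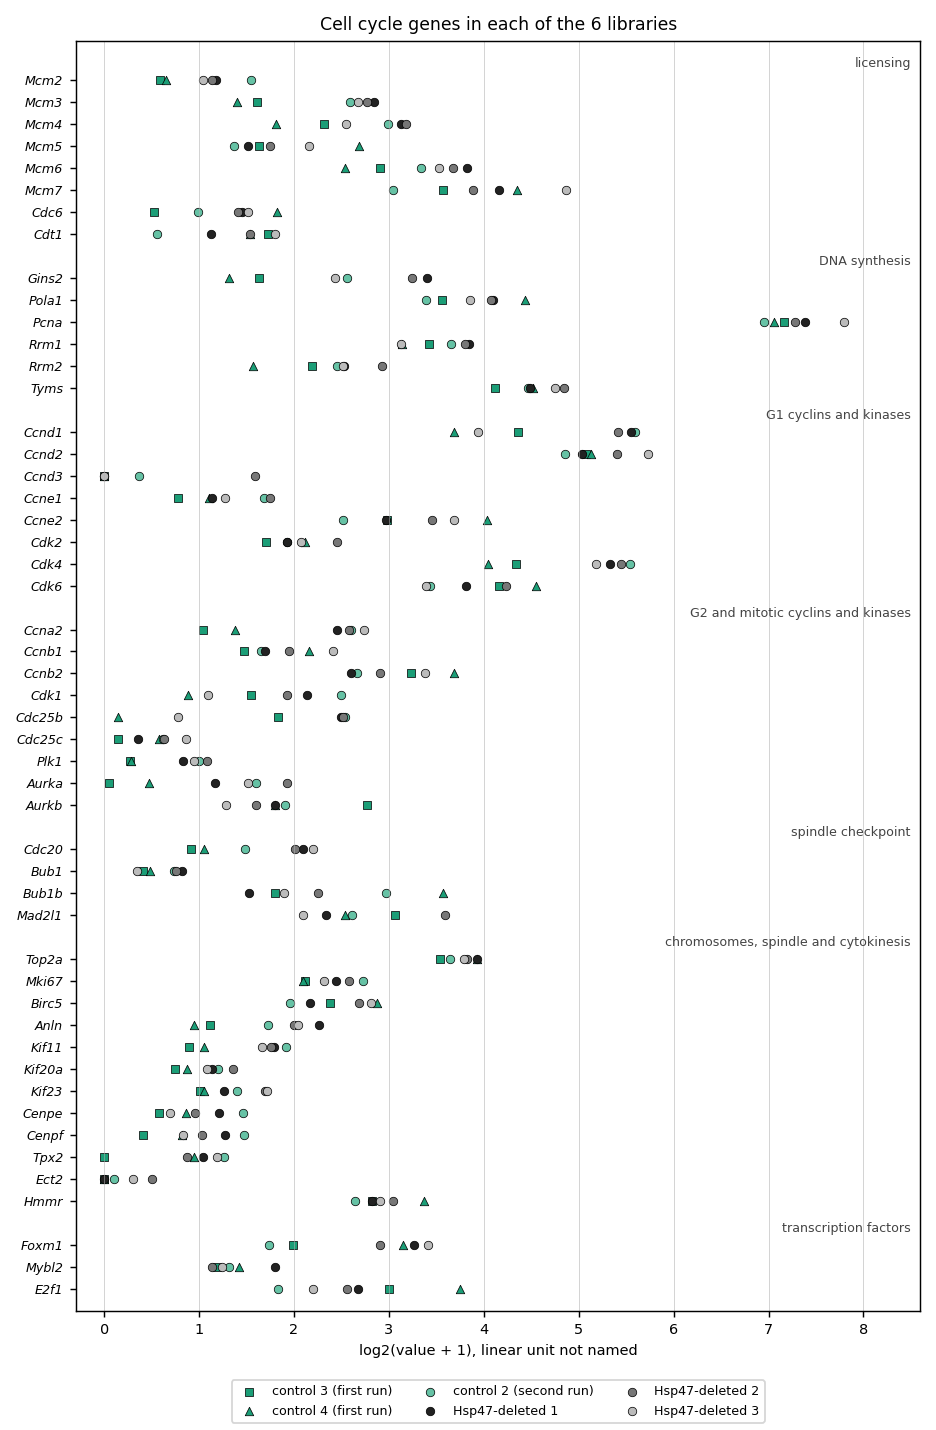
Level of each of the 50 members (log2(value + 1), x axis) in each of the 6 libraries, grouped by role, with controls in green (squares and triangles for the first run, circles for the second) and Hsp47-deleted libraries in black and greys. *Pcna* stands apart near the right edge (6.95 to 7.79). Control 2 lies within the range of the Hsp47-deleted circles for 12 of the 43 tested members (27.9%, against 41.6% of all genes).

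With limma and Benjamini-Hochberg (BH) adjustment over all tested genes, 0 of the 43 tested members differed between the groups, as against 37 of 15109 genes (0.245%). The smallest adjusted p of a member was 0.286 (*Cdc20*). Limma without the mean-variance trend and limma with robust estimation also called 0 members, with 4 and 3 at an unadjusted p under 0.05. At an unadjusted p under 0.05, 3 members were higher in Hsp47-deleted libraries (*Gins2*, *Cdc20* and *Anln*, 6.98%), below the 14.5% of all genes, and 0 were lower, against 0.755% of all genes. The fold change was above 0 for 35 members (81.4%), where 74.5% of all genes were also above 0, and below 0 for 8. Members had a median log2 fold change of 0.25, which is 0.11 below that of all tested genes.

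Values of the Hsp47-deleted libraries lay above every control for 6 members (*Mcm3*, *Mcm6*, *Pcna*, *Rrm2*, *Cdc20* and *Anln*; 14% against 18.3% of all genes). They lay below every control for 1 member, *Aurkb* (2.33% against 1.5%). The 95% interval of the fold change held 0 for 40 of the 43 members, and held the median of all genes for 41, all but *Aurkb* and *Bub1b*. These intervals are not adjusted for the number of genes. They reached 0.89 to either side at the median and 0.65 to 1.66 over the members. Even at that level, a difference of under 0.65 on the log2 scale could not have been told from 0 for any member. The BH-adjusted test is stricter, and neither *Gins2* (log2 fold change 1.19) nor *Cdc20* (0.95) was called by it. For any single gene, the smallest two-sided p that exact permutation of 3 and 3 libraries allows is 0.10.

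**Figure D3:**
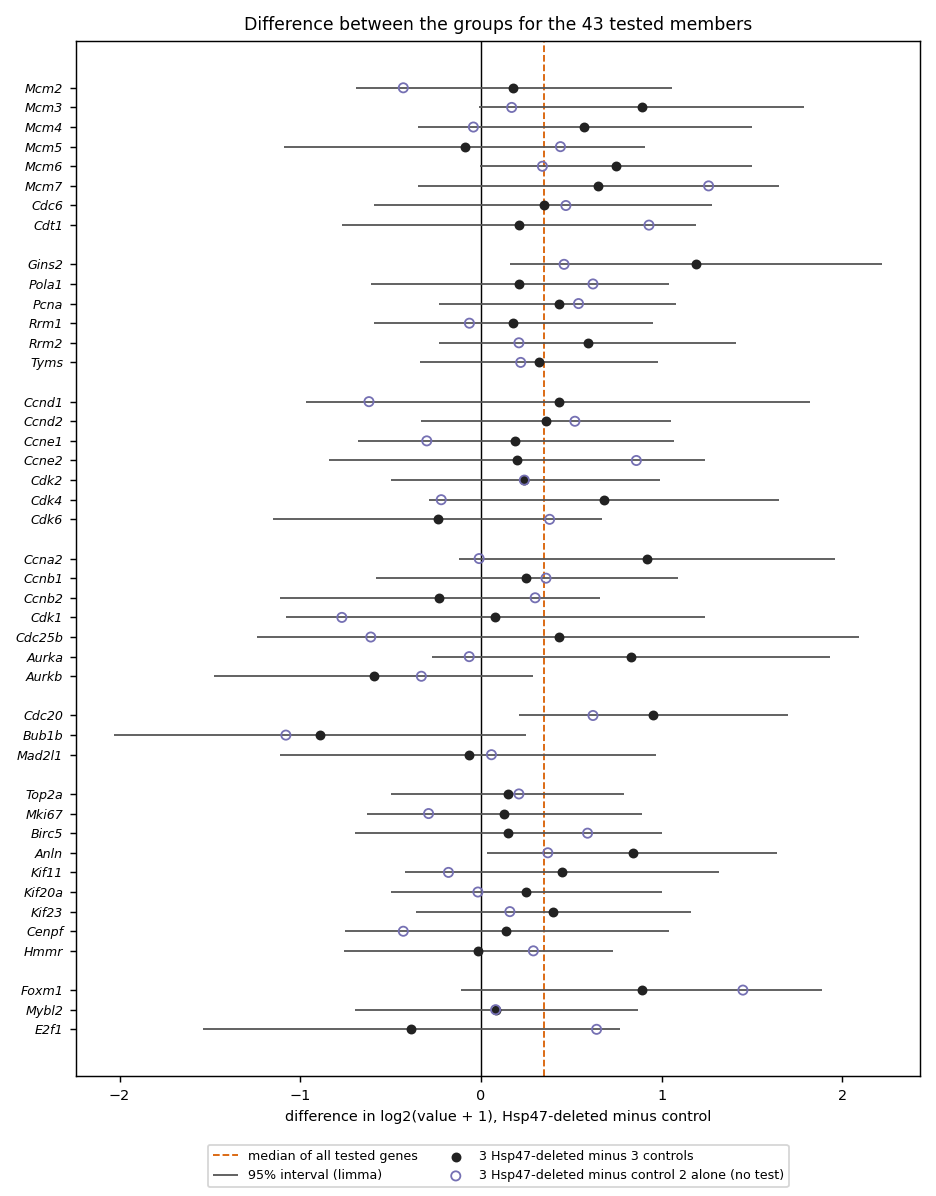
Difference in log2(value + 1) between the groups (x axis, Hsp47-deleted minus control) for the 43 tested members, as filled points with 95% limma intervals, and the difference from control replicate 2 alone as open circles without a test. The dashed line is the median of all tested genes (0.35). The intervals hold 0 for 40 members, and open circles often lie on the other side of 0 from the filled points, as for *Ccnd1* and *Cdk1*.

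Licensing genes come first in the order of the cycle. Of the 8, 7 had a log2 fold change above 0, with a median of 0.46 against 0.35 for all genes. *Mcm2*, a subunit of the replicative helicase that is often used as a marker of cells in cycle, was at 1.55, 0.59 and 0.65 in control replicates 2, 3 and 4, and at 1.18, 1.13 and 1.04 in Hsp47-deleted replicates 1, 2 and 3. Control replicate 2 was thus the highest library and the other controls the lowest. The means were 0.93 ± 0.54 and 1.11 ± 0.072 (SD, n = 3 each), a log2 fold change of 0.18 with a standard error (SE) of 0.38 (adjusted p = 0.829, limma).

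*Mcm3* (chromosome 1, 20802968 to 20820312), another helicase subunit, was at 2.59, 1.61 and 1.40 in control replicates 2, 3 and 4, and at 2.84, 2.77 and 2.67 in Hsp47-deleted replicates 1, 2 and 3. Its groups did not overlap, but control replicate 2 lay only just below the Hsp47-deleted libraries and about 1.08 above the mean of the other controls. The log2 fold change was 0.89 with SE 0.39 (adjusted p = 0.33, limma), and the difference from control replicate 2 alone was 0.17. *Mcm6* (chromosome 1, 128331590 to 128359664) was at 3.34, 2.91 and 2.54 in control replicates 2, 3 and 4, and at 3.82, 3.67 and 3.53 in Hsp47-deleted replicates 1, 2 and 3. Again control replicate 2 was the highest control, below all Hsp47-deleted libraries. The log2 fold change of *Mcm6* was 0.75 with SE 0.32 (adjusted p = 0.33, limma), and 0.34 against control replicate 2 alone.

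Of the other helicase subunits, *Mcm4* shared this order in part, and *Mcm5* and *Mcm7* did not. *Mcm4* was at 2.38 ± 0.59 in controls and 2.95 ± 0.35 in Hsp47-deleted libraries (log2 fold change 0.57). Its control replicates 3 and 4 were the lowest libraries, but control replicate 2 (2.99) lay above Hsp47-deleted replicate 3 (2.55). *Mcm5* was at 1.89 ± 0.70 and 1.81 ± 0.33 (-0.088). *Mcm7*, at 3.65 ± 0.66 and 4.31 ± 0.51, differed by 0.65. For *Mcm5* and *Mcm7* control replicate 2 was the lowest of the 6 libraries, at 1.37 and 3.04. *Mcm7* has a near-identical copy, *Gm5487*, with which reads could have been shared, so its value is uncertain. The helicase loaders *Cdc6* (1.11 ± 0.65 and 1.46 ± 0.05, log2 fold change 0.35) and *Cdt1* (1.28 ± 0.63 and 1.49 ± 0.34, log2 fold change 0.21) varied more among the controls than between the groups.

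All 6 genes of DNA synthesis had a log2 fold change above 0, with a median of 0.38, near the median of all genes. *Gins2* (chromosome 8, 120578633 to 120589304), a subunit of the GINS complex that activates the helicase, had the largest difference of any member as deposited. It was at 2.56, 1.63 and 1.31 in control replicates 2, 3 and 4, and at 3.40, 3.24 and 2.43 in Hsp47-deleted replicates 1, 2 and 3. Control replicate 2 lay above Hsp47-deleted replicate 3, so the groups overlapped. The means were 1.83 ± 0.65 and 3.02 ± 0.52 (SD, n = 3 each), a log2 fold change of 1.19 with SE 0.45 (unadjusted p = 0.0291, adjusted p = 0.306, limma). Against control replicate 2 alone the difference was 0.46.

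*Pcna* (chromosome 2, 132249162 to 132253314), the sliding clamp of the DNA polymerases, was at 6.95, 7.16 and 7.06 in control replicates 2, 3 and 4, and at 7.38, 7.28 and 7.79 in Hsp47-deleted replicates 1, 2 and 3. The groups did not overlap, and here control replicate 2 was the lowest library. The log2 fold change was 0.43 with SE 0.28 (adjusted p = 0.47, limma), close to the median of all genes, and it was -0.056 after rescaling without the mitochondrial genes. *Rrm2* (chromosome 12, 24708241 to 24714146), the small subunit of ribonucleotide reductase that is made in S phase, was at 2.45, 2.19 and 1.57 in control replicates 2, 3 and 4, and at 2.53, 2.93 and 2.52 in Hsp47-deleted replicates 1, 2 and 3. Its groups did not overlap either, though the highest control and the lowest Hsp47-deleted library were close. For *Rrm2* the log2 fold change was 0.59 with SE 0.35 (adjusted p = 0.435, limma).

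The large subunit of the same enzyme, *Rrm1*, was at 3.40 ± 0.26 and 3.59 ± 0.40, a difference of 0.18. *Pola1*, the catalytic subunit of DNA polymerase alpha, was at 3.79 ± 0.56 and 4.01 ± 0.14 (0.21). *Tyms*, which makes thymidylate, was at 4.37 ± 0.22 and 4.69 ± 0.18 (0.32). Of these 3 genes, only *Tyms* differed by more than the SD of its controls.

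Among the G1 cyclins and kinases, *Ccnd1*, *Ccnd2* and *Cdk4* had the highest values. Of 7 tested genes, 6 were above 0 in log2 fold change, with a median of 0.24, and the groups overlapped for all of them. *Ccnd1*, the D-type cyclin that mitogens induce, was at 5.59, 4.36 and 3.68 in control replicates 2, 3 and 4, and at 5.55, 5.41 and 3.94 in Hsp47-deleted replicates 1, 2 and 3. Its spread within each group (SD 0.97 and 0.89) was larger than the log2 fold change of 0.43 with SE 0.60 (adjusted p = 0.746, limma). Against control replicate 2 alone the difference was -0.62.

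*Ccnd2* was at 5.02 ± 0.14 and 5.39 ± 0.35 (log2 fold change 0.36). *Cdk4*, the kinase partner of both, was at 4.64 ± 0.79 and 5.32 ± 0.13 (0.68), with control replicate 2 at 5.54 and control replicates 3 and 4 at 4.34 and 4.04. *Cdk6* was at 4.05 ± 0.57 and 3.81 ± 0.42 (-0.24). Thus the 2 kinases that share the D-type cyclins differed in sign, each by less than the spread of its controls. Cyclins E, which drive entry into S phase with *Cdk2*, were at 1.19 ± 0.46 and 1.38 ± 0.33 for *Ccne1* (0.19) and 3.17 ± 0.78 and 3.37 ± 0.36 for *Ccne2* (0.20). *Cdk2* itself was at 1.91 ± 0.21 and 2.15 ± 0.27 (0.24). *Ccnd3* was not tested. It was above 0.1 only in control replicate 2 (0.37) and Hsp47-deleted replicate 2 (1.59).

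Genes of G2 and mitotic entry were mixed. Of 7 tested, 5 had a log2 fold change above 0, with a median of 0.25, and against control replicate 2 alone 2 of the 7 were above 0. *Ccna2*, the cyclin of S phase and G2, was at 1.67 ± 0.82 and 2.59 ± 0.14 (log2 fold change 0.92, adjusted p = 0.363, limma), with control replicate 2 at 2.60 and control replicates 3 and 4 at 1.04 and 1.38. *Ccnb1*, the main mitotic cyclin, was at 1.65, 1.47 and 2.16 in control replicates 2, 3 and 4, and at 1.69, 1.95 and 2.41 in Hsp47-deleted replicates 1, 2 and 3. The ranges overlapped. Its log2 fold change was 0.25 with SE 0.36 (adjusted p = 0.747, limma). Near-identical copies (*Ccnb1-ps*, *Gm12856* and *Gm8416*) make both its values and this difference uncertain. *Gm12856* was at 0.14, 0.00 and 0.34 in the controls and at 0.48, 0.47 and 0.97 in the Hsp47-deleted libraries. The part of shared reads was not tested.

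*Cdk1*, the kinase that cyclin B activates, was at 2.49, 1.55 and 0.88 in control replicates 2, 3 and 4, and at 2.14, 1.93 and 1.09 in Hsp47-deleted replicates 1, 2 and 3. Control replicates 2 and 4 were the highest and the lowest of the 6 libraries, and the Hsp47-deleted libraries lay between them. Its log2 fold change was 0.079 with SE 0.50 (adjusted p = 0.951, limma). *Ccnb2* was at 3.19 ± 0.51 and 2.97 ± 0.39 (-0.23). *Cdc25b*, a phosphatase that activates Cdk1, had the largest spread of the tested members in both groups, with an SD of 1.23 in controls and 0.99 in Hsp47-deleted libraries and a log2 fold change of 0.43.

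The 2 Aurora kinases differed in opposite directions. *Aurka*, the kinase of the spindle poles, was at 1.60, 0.049 and 0.47 in control replicates 2, 3 and 4 and averaged 1.54 ± 0.38 in Hsp47-deleted libraries, a log2 fold change of 0.83 (adjusted p = 0.417, limma) that became -0.065 against control replicate 2 alone. *Aurkb* (chromosome 11, 69045647 to 69051664), the kinase of the chromosomal passenger complex, was at 1.90, 2.77 and 1.80 in control replicates 2, 3 and 4, and at 1.80, 1.60 and 1.28 in Hsp47-deleted replicates 1, 2 and 3. It was the only tested member for which every Hsp47-deleted library was below every control, with control replicate 4 and Hsp47-deleted replicate 1 apart by less than the second decimal. Its log2 fold change of -0.59 came with SE 0.38 (adjusted p = 0.459, limma), and control replicate 3 alone was far above the rest. *Plk1*, another mitotic kinase, and *Cdc25c* were not tested, with values of 0.27 to 1.08 and 0.14 to 0.86.

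In the spindle checkpoint, which holds anaphase until every chromosome is attached, members also stood on both sides of 0. *Cdc20* (chromosome 4, 118432901 to 118437352), which activates the anaphase-promoting complex, had the smallest p of all members. It was at 1.48, 0.91 and 1.05 in control replicates 2, 3 and 4, and at 2.09, 2.01 and 2.20 in Hsp47-deleted replicates 1, 2 and 3. The Hsp47-deleted libraries lay close together and above every control. The means were 1.15 ± 0.30 and 2.10 ± 0.092 (SD, n = 3 each), a log2 fold change of 0.95 with SE 0.32 (unadjusted p = 0.0188, adjusted p = 0.286, limma), and the difference from control replicate 2 alone was 0.62.

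*Bub1b*, which encodes the BubR1 protein that restrains Cdc20, was at 2.97, 1.80 and 3.57 in control replicates 2, 3 and 4, and at 1.52, 2.25 and 1.89 in Hsp47-deleted replicates 1, 2 and 3. Its log2 fold change of -0.89 was the lowest of the members as deposited (adjusted p = 0.401, limma), but control replicate 3 lay within the Hsp47-deleted range. *Mad2l1* was at 2.74 ± 0.28 and 2.67 ± 0.80 (-0.068). *Bub1* was not tested and was at 0.34 to 0.82.

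Genes of chromosomes, spindle and cytokinesis include the common markers of dividing cells, and 8 of 9 tested genes had a log2 fold change above 0, with a median of 0.15. *Top2a*, which untangles replicated DNA, was at 3.64, 3.54 and 3.93 in control replicates 2, 3 and 4, and at 3.93, 3.82 and 3.79 in Hsp47-deleted replicates 1, 2 and 3. The groups overlapped, and the log2 fold change was 0.15 with SE 0.28 (adjusted p = 0.816, limma). *Mki67*, which encodes the Ki-67 antigen, was at 2.73, 2.11 and 2.09 in control replicates 2, 3 and 4, and at 2.44, 2.58 and 2.31 in Hsp47-deleted replicates 1, 2 and 3. As with *Mcm2*, control replicate 2 was the highest library and the other controls the lowest. For *Mki67* the log2 fold change was 0.13 with SE 0.33 (adjusted p = 0.861, limma).

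*Anln* (chromosome 9, 22332012 to 22389188) encodes anillin, a scaffold of the cytokinetic ring. It was at 1.73, 1.11 and 0.95 in control replicates 2, 3 and 4, and at 2.26, 2.00 and 2.04 in Hsp47-deleted replicates 1, 2 and 3. Every Hsp47-deleted library was above every control, and control replicate 2 was the nearest to them. The means were 1.26 ± 0.41 and 2.10 ± 0.14 (SD, n = 3 each), a log2 fold change of 0.84 with SE 0.35 (unadjusted p = 0.0429, adjusted p = 0.321, limma), and 0.37 against control replicate 2 alone.

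The 3 tested kinesins were each higher on average in Hsp47-deleted libraries, but overlapped with the controls. *Kif11*, which makes the spindle bipolar, was at 1.29 ± 0.55 and 1.73 ± 0.069 (log2 fold change 0.45). *Kif20a*, a motor of the midzone, was at 0.94 ± 0.24 and 1.19 ± 0.15 (0.25). *Kif23*, a centralspindlin subunit, was at 1.15 ± 0.21 and 1.55 ± 0.25 (0.40). For all 3, control replicates 3 and 4 were the lowest libraries. *Birc5*, the survivin subunit of the passenger complex, was at 2.40 ± 0.45 and 2.55 ± 0.34 (0.15). *Cenpf*, a kinetochore protein of late G2, was at 0.90 ± 0.53 and 1.04 ± 0.22 (0.14), and *Hmmr*, a spindle-associated hyaluronan receptor, at 2.94 ± 0.38 and 2.93 ± 0.11 (-0.015). Among the untested genes, the kinetochore kinesin *Cenpe* ranged from 0.58 to 1.46 (mean 0.97 in controls, 0.95 in Hsp47-deleted libraries). The spindle assembly factor *Tpx2*, also untested, ranged from 0.00 to 1.26. *Ect2*, which starts the contraction of the ring, reached 0.50 at most.

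The 3 transcription factors of the set did not share a direction against all controls, but all 3 were higher against control replicate 2 alone (median 0.64 against 0.086 with all controls). *Foxm1*, an activator of G2 and mitotic genes, was at 1.74, 1.99 and 3.15 in control replicates 2, 3 and 4, and at 3.26, 2.90 and 3.41 in Hsp47-deleted replicates 1, 2 and 3. Control replicate 4 lay within the range of the Hsp47-deleted libraries, and the log2 fold change was 0.89 (adjusted p = 0.357, limma). *Mybl2* was at 1.31 ± 0.12 and 1.39 ± 0.36 (0.086). *E2f1*, an activator of the G1 to S genes, was at 1.83, 3.00 and 3.75 in control replicates 2, 3 and 4, and at 2.67, 2.56 and 2.20 in Hsp47-deleted replicates 1, 2 and 3. Control replicate 2 was the lowest library and the other controls the highest, and the log2 fold change was -0.39 (adjusted p = 0.723, limma). Against control replicate 2 alone, *Foxm1* differed by 1.45 and *E2f1* by 0.64.

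Controls varied more than Hsp47-deleted libraries for most members, as for most genes. The median SD was 0.53 in controls and 0.27 in Hsp47-deleted libraries, against 0.53 and 0.36 over all tested genes, and the SD was larger in controls for 35 of 43 members (81.4% against 67.7% of all genes). Control replicates 3 and 4 were both below all libraries of the second run for 17 members (39.5%, against 35% of all genes). These were *Mcm2*, *Mcm3*, *Mcm4*, *Mcm6*, *Gins2*, *Rrm2*, *Ccne1*, *Cdk4*, *Ccna2*, *Aurka*, *Cdc20*, *Mki67*, *Anln*, *Kif11*, *Kif20a*, *Kif23* and *Cenpf*. Of the 6 members whose Hsp47-deleted values lay above every control, 5 were among them, all but *Pcna*. Control replicates 3 and 4 were both above all second-run libraries for *E2f1* alone (2.33% against 9.92%).

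Control replicate 2 lay within the range of the Hsp47-deleted libraries for 12 members (27.9% against 41.6% of all genes), above all of them for 10 (23.3% against 11.7%) and below all of them for 21 (48.8% against 46.7%). The 10 included *Mcm2*, *Ccnd1*, *Cdk4*, *Cdk1* and *Mki67*. The sequencing run term of a limma fit with both run and group, which rests on control replicate 2 against control replicates 3 and 4, had an unadjusted p under 0.05 for 5 members (11.6% against 26.5% of all genes). *Mcm3*, *Cdk4*, *Ccna2* and *Aurka* were higher in the second run and *E2f1* lower. After BH adjustment 0 members passed for the run term, against 3.94% of all genes. For the group term of the same fit 0 members passed, where 50 genes did (0.331%). Group differences in that fit equal those from control replicate 2 alone, because no other control shares a run with Hsp47-deleted libraries. Compared with control replicate 2 alone, without a test, 27 members were higher in Hsp47-deleted libraries (62.8% against 71.8%). The median difference was 0.21, against 0.29 for all genes.

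Leaving out control replicate 2 raised the number of called genes to 2768 (18.3% of those tested) and that of called members to 5 (11.6%). The 5, all higher, were *Mcm3* (log2 fold change 1.25, adjusted p = 0.0308, limma), *Gins2* (1.55, adjusted p = 0.0356), *Cdk4* (1.13, adjusted p = 0.031), *Ccna2* (1.38, adjusted p = 0.0265) and *Cdc20* (1.12, adjusted p = 0.0433). In that comparison every control is from the first run and every Hsp47-deleted library from the second, so that group and run cannot be told apart.

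The direction of the members as a whole turned with the scaling. The summed linear value of the 50 members came to 434.9 in control replicate 2, 385.0 in control replicate 3 and 428.1 in control replicate 4. It came to 513.5, 537.2 and 553.0 for Hsp47-deleted replicates 1, 2 and 3, each above every control. Expressed per 1000000 of the linear values outside the mitochondrial genome, it was 746, 790 and 737 in these controls and 691, 716 and 678 in the Hsp47-deleted libraries, lower in every Hsp47-deleted library. Without *Pcna* the relative sums overlapped, at 498 to 536 in controls and 409 to 509 in Hsp47-deleted libraries. These sums carry no test. The part of the mitochondrial share in the values of the members as deposited was not tested beyond this rescaling.

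**Figure D4:**
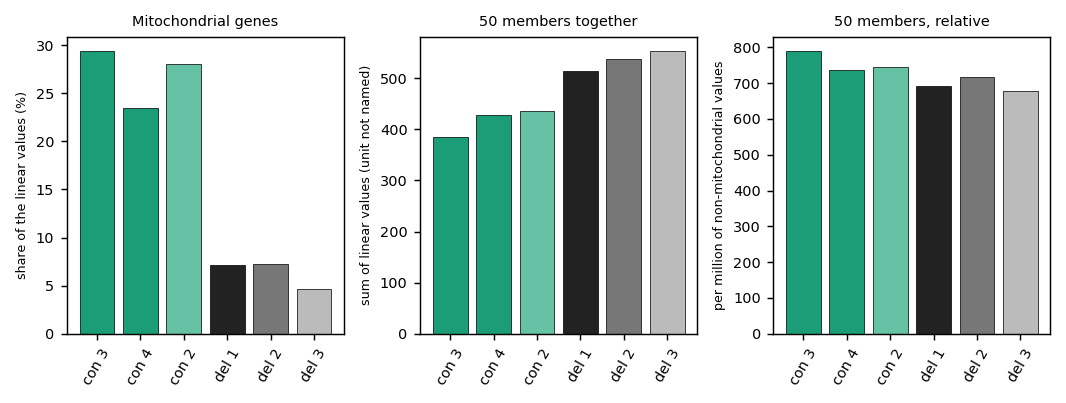
Per library (con, control; del, Hsp47-deleted), from left to right, the share of mitochondrially encoded genes (%), the summed linear value of the 50 members as deposited, and the same sum per 1000000 of the values outside the mitochondrial genome. The sum is higher in the Hsp47-deleted libraries as deposited (513.5 to 553.0 against 385.0 to 434.9) and lower after rescaling (678 to 716 against 737 to 790).

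Gene by gene the same turn was seen. With libraries centred on their medians, 16 members were higher (37.2%, against 45.7% of all genes) and the median was -0.17, against -0.06 for all genes. Rescaled without the mitochondrial genes, 17 were higher (39.5%, against 46.7%) and the median was -0.077, against -0.048. At an unadjusted limma p under 0.05, 0 members were then higher under either scaling, where 4.73% and 4.22% of all genes were. Lower at that threshold were *Aurkb* (log2 fold change -1.01) and *Bub1b* (-1.31) after centring, 2 members where 3.48% of all genes were lower. After rescaling only *Bub1b* was (-1.27), where 3.77% of all genes were. In both scalings 0 members passed BH adjustment (adjusted p of *Bub1b* 0.59 and 0.612, limma). *Gins2*, *Cdc20*, *Mcm3*, *Mcm6*, *Rrm2* and *Anln* kept a log2 fold change above 0 under both.

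Other genes of the pathway, 132 in 8 lists of which 113 were tested, are given beside the members. Their median log2 fold change was 0.28 (0.25 for the members), 15 had an unadjusted limma p under 0.05, all 15 were higher (13.3%, against 14.5% of all genes), and 0 passed BH adjustment. Replication fork genes were higher for 22 of 22 tested, with a median of 0.54, which became 12 of 22 after centring and 15 of 22 against control replicate 2 alone. *Dut*, which keeps uracil out of DNA, had the smallest p among them (log2 fold change 1.74, adjusted p = 0.224, limma), followed by the polymerase delta subunit *Pold1* (1.45) and the single-strand binding protein *Rpa1* (1.24). The list of origin recognition and helicase loading, which also holds GINS genes and *Cdc7*, was split (6 of 12 higher, median 0.033). In this list *Cdc7*, the kinase that fires origins, had an unadjusted p under 0.05 (log2 fold change 1.21, BH-adjusted p = 0.291, limma).

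Genes that act later in the cycle gave medians of 0.41 for condensin and cohesin (10 of 14 higher), 0.17 for the kinetochore (12 of 16), 0.53 for the anaphase-promoting complex (11 of 15) and 0.072 for other spindle and cytokinesis genes (10 of 13). The cohesin subunit *Rad21* (log2 fold change 1.02, adjusted p = 0.252, limma) and securin, *Pttg1* (0.97), were the condensin and cohesin genes with an unadjusted p under 0.05. Of the anaphase-promoting complex and its partners, *Anapc2* (0.95), *Ube2s* (1.54) and *Cdc16* (0.75) had the smallest p. Pocket proteins, E2F factors and MuvB subunits had 7 of 16 genes higher and a median of -0.059. The cyclin-dependent kinase inhibitors, which brake the kinases above, were higher for 5 of 5 tested, with a median of 0.86, and remained so after centring (0.44) and against control replicate 2 alone (0.43). *Cdkn1a* had a log2 fold change of 1.87 and *Cdkn2b* of 0.82, neither called after BH adjustment (limma, adjusted p = 0.115 and 0.315).

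**Figure D5:**
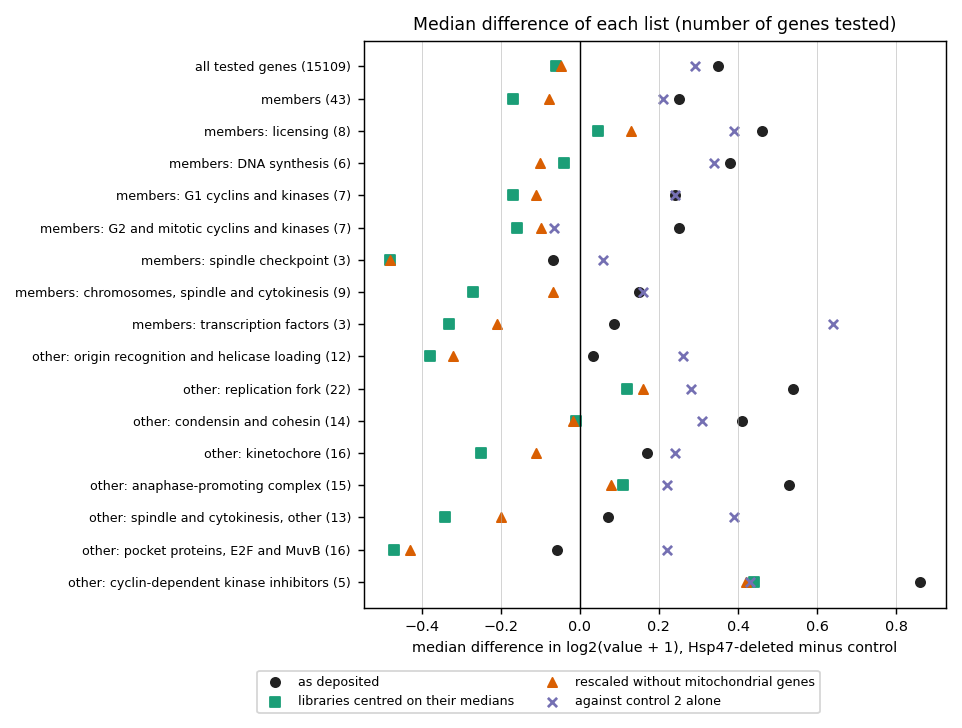
Median difference in log2(value + 1) (x axis, Hsp47-deleted minus control) of all tested genes, of the members and their roles and of the 8 other lists, as deposited, under 2 other scalings and against control replicate 2 alone, with the number of genes tested in parentheses. The median of the members is 0.25 as deposited and -0.17 after centring, beside 0.35 and -0.06 for all genes.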

How the data were processed

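EGFP+ myofibroblasts were profiled by RNA-seq in 6 libraries, 3 control and 3 Hsp47-deleted. Per the labels, total RNA was amplified before library construction, and the submitters' processing notes name kallisto and the mm10 build without versions. The paper names AltAnalyze. The authors deposited 1 table of log2(value + 1) per gene and library without naming the linear unit, which holds fractions. No counts were used here, so the number of reads behind a value is unknown and no interval for counting error is given. The columns in which the authors give group averages and their own comparison (fold changes, p-values, adjusted p-values) were not used.

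All 28987 genes were read, and the 15109 with a mean linear value of at least 1 were fitted in R 4.3.3 by limma 3.58.1, using eBayes with its trend option, two-sided and with no covariate, with Benjamini-Hochberg adjustment over all 15109 genes and a threshold of 0.05. Differences were taken between the deposited log2(value + 1) values, so changes of low genes are understated. The fit was tested on simulated data. The members, the gene lists and the tests were chosen with earlier results of these data known. Every member is named, with full values for those with an unadjusted p under 0.05, those whose groups did not overlap, and *Mki67*, *Top2a*, *Pcna*, *Mcm2*, *Ccnd1*, *Ccnb1* and *Cdk1*. Of the other genes, those with an unadjusted p under 0.05 are named, at most 3 per list in order of p, and *Cdkn1a*. Some further members have library values printed because their pattern was seen in the data, and the run term was likewise examined after values were seen.

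Alternatives were the sequencing run as a covariate, the second run alone, a block for the replicate number, pseudocounts of 0.1 and 5, a minimum mean of 5 or no minimum, centring, quantile normalization, rescaling to an equal sum without mitochondrial genes, limma without trend or with robust estimation (statmod 1.5.0), and leaving out each library. Positions came from GENCODE release M21 (GRCm38) and promoters from RefSeq. Near-identical copies were transcripts of other genes that minimap2 2.31-r1302 aligned to a member with at least 95% identity. The alignment had to cover at least 80% of the member's transcript. Of the genes in the lists, 3 had no row in the table. Figures were drawn with matplotlib 3.10.9.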

Additional observations from a re-analysis of the deposited data

How the results depend on the processing

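The number of called members stayed at 0 under every alternative that kept all 6 libraries, whereas the direction of the members depended on the scaling. The count of members with a log2 fold change above 0 (35 of 43) became 16 after centring, 18 with quantile normalization and 17 after rescaling without mitochondrial genes. A minimum mean of 5 did not turn the direction. It left fewer members to test, of which 14 were above 0, with a median of 0.32. The median of the members (0.25) became -0.17, -0.11 and -0.077 under the 3 scalings, in the order given. It differed from that of all tested genes by 0.17 with no filter, where the many genes near 0 pull the median of all genes to 0.072. Members with an unadjusted p under 0.05 (3) numbered 1 with a mean of at least 5, 5 with a pseudocount of 0.1 and 1 after rescaling. Called genes (37) numbered 16 with a pseudocount of 0.1, 18 after centring, 18 with quantile normalization and 17 after rescaling, and the cause was not tested.

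Role medians moved as well. Licensing (0.46) was at 0.65 with a mean of at least 5, 0.68 and 0.22 with pseudocounts of 0.1 and 5, 0.046 after centring, 0.083 with quantile normalization and 0.13 after rescaling. After centring, quantile normalization and rescaling, respectively, DNA synthesis was at -0.04, -0.041 and -0.10, G1 cyclins and kinases at -0.17, -0.13 and -0.11, and the spindle checkpoint at -0.48, -0.46 and -0.48. In the same order, chromosomes, spindle and cytokinesis (0.15) was at -0.27, -0.15 and -0.068. G2 and mitotic cyclins and kinases (0.25) was at -0.16, -0.14 and -0.099, and transcription factors (0.086) at -0.33, -0.27 and -0.21. The G2 and mitotic median was also -0.23 with a mean of at least 5 and -0.065 with the sequencing run as a covariate.

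Of the 43 members, 19 changed sign after centring, 17 with quantile normalization and 18 after rescaling, all to below 0, and 20 with the sequencing run as a covariate (14 to below 0, 6 to above 0). Among the 14 members given in full, those that did are named here. After centring, *Mcm2* was at -0.23, *Ccnb1* at -0.16, *Cdk1* at -0.34, *Top2a* at -0.27 and *Mki67* at -0.28. With quantile normalization, *Mcm2* was at -0.11, *Pcna* at -0.025, *Ccnb1* at -0.14, *Cdk1* at -0.29, *Top2a* at -0.24 and *Mki67* at -0.28. After rescaling, *Mcm2* was at -0.046, *Pcna* at -0.056, *Ccnd1* at -0.038, *Ccnb1* at -0.099, *Cdk1* at -0.24, *Top2a* at -0.31 and *Mki67* at -0.26. With the sequencing run as a covariate, *Mcm2* was at -0.43, *Ccnd1* at -0.62, *Cdk1* at -0.77 and *Mki67* at -0.29. These are also the differences from control replicate 2 alone. The cause was not tested.

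Leaving out 1 library at a time gave 8 to 2768 called genes, 0 to 5 called members, 0 to 11 members with an unadjusted p under 0.05, a spindle checkpoint median of -0.53 to 0.22, and log2 fold changes of -0.0049 to 0.95 for *Ccnd1* and -0.30 to 0.50 for *Cdk1*. The upper counts came from the fit that lacks control replicate 2. When Hsp47-deleted replicate 1 was left out, the members with an unadjusted p under 0.05 numbered 0.

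Replicate numbers 2 and 3 occur in both groups. Deviations of the same-numbered libraries from their group means had a Pearson r of 0.16 and 0.23 across 15109 genes, but with only 2 such numbers and nothing in the labels that ties them, the libraries share only a number. With the replicate block, 0 genes and 0 members were called, 2 members had an unadjusted p under 0.05, and 11 members changed sign, among those given in full *Ccnd1* (-0.30) and *Cdk1* (-0.51). The block leaves few residual degrees of freedom.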
